A study of Homo sapiens with 6 samples.

Results

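The messengers of 9 genes that cut, or regulate the cutting of, tRNA and small RNA were examined in MDA-MB-453 breast cancer cells, out of the 33451 genes in the table of counts. They were taken by name from that table, namely the microRNA-processing enzymes DROSHA and DICER1, the tRNA 3-prime processing enzymes ELAC1 and ELAC2, the secreted ribonucleases ANG, RNASE4 and RNASET2, the ribonuclease inhibitor RNH1, and RNASEK. All 9 passed the filter on low counts that left 18183 genes for testing. MDA-MB-453, an established cell line of a human breast tumour, lacks the oestrogen receptor. Cells of both groups were grown in the same serum-containing medium for 5 days, the 25(OH)D group with 100 nM of 25-hydroxyvitamin D, the circulating form of vitamin D, and the control group with its alcohol solvent alone. The mRNA was sequenced in 3 libraries of each group. The study calls the replicates biological, and nothing states that they came from separate cultures, so the p-values measure the spread between these libraries.

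Small RNAs are cut from longer precursors by a few dedicated nucleases. A microRNA precursor is first cropped in the nucleus by DROSHA and then diced in the cytoplasm by DICER1. A precursor tRNA loses its 5-prime leader to RNase P and its 3-prime trailer to RNase Z, the activity of ELAC1 and ELAC2, and the released trailer is the source of the tRF-1 class of tRNA fragments. Mature tRNAs can be cut in the anticodon loop by ANG (angiogenin), a member of the RNase A family that RNH1 binds and inhibits, and RNASET2 is an acid ribonuclease of the lysosomal and secretory compartments that can also cut tRNA. The mRNA libraries report the messengers of these enzymes, and neither tRNA fragments nor protein were measured in them. In bulk RNA, less RNA per cell and fewer cells that carry it cannot be told apart.

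The libraries held between 33268860 and 40928176 counts. The luminal markers ERBB2, FGFR4, FOXA1, GATA3, EPCAM, KRT8 and KRT18 all had over 70 CPM (counts scaled to a common library size) in every library, whereas ESR1 and PGR had at most 8 counts. Among the luminal markers, GATA3 fell from 262 to 151 CPM on average (log2 fold change -0.80, adjusted p = 8.56e-10 from edgeR). FOXA1 also fell (log2 fold change -0.46, adjusted p = 1.51e-05 from edgeR). ERBB2 (0.22), KRT8 (0.14) and KRT18 (0.10) rose at an adjusted p under 0.05 with edgeR, and FGFR4 and EPCAM did not pass. The basal genes KRT5, KRT14 and TP63 had at most 26 counts. TP63 fell from 12, 26 and 19 counts in control to 3, 2 and 2 with 25(OH)D (log2 fold change -2.84, adjusted p = 0.00193 from edgeR), while KRT5 (adjusted p = 0.201) and KRT14 (not tested) had higher means with 25(OH)D. The leukocyte genes had at most 6 counts and the endothelial genes in the table at most 12. Of the fibroblast genes, COL1A1 had 32.0 to 38.5 CPM, while COL1A2 and PDGFRB had at most 16 counts. Mitochondrial genes took 7.85% to 7.99% of the counts in control and 8.89% to 9.24% in 25(OH)D, and the part of these markers and of mitochondrial genes in the results was not tested. Among counts of 1 to 10, between 66.8% and 69.8% were even in each library, against 51.5% to 52.6% among counts of 100 or more, so reads behind low counts may not be independent of each other.

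Of the 9 genes, RNASET2 and DICER1 rose with 25(OH)D, by 1.64-fold and 1.42-fold, and DROSHA fell to 0.871-fold of control. These 3 passed an adjusted p under 0.05. Unless another test is named, every p-value is from the quasi-likelihood test of edgeR, adjusted by the Benjamini-Hochberg method over all genes tested. The other genes, ANG, RNASE4, RNH1, ELAC1, ELAC2 and RNASEK, did not pass. The count of 3 of 9 is near the background of 33.8% of all genes tested, of which the higher genes made 17.3% (2 of 9 here) and the lower genes 16.5% (1 of 9 here). The study chose ANG and ELAC2 from an enrichment result on its own data, so their directions here are not independent evidence. It also reports that both proteins were reduced to varying degrees by 25(OH)D, ELAC2 less so. Protein is a different measure from the messengers counted here. The median log2 fold change of the 9 genes was 0.0043, beside -0.011 over all genes tested.

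The groups did not overlap in 4 of the 9 genes, 3 with higher and 1 with lower values, against 45.7% of all genes tested (22.8% higher and 22.9% lower). The study's own limits were an absolute log2 fold change over 1 with an unadjusted p under 0.05. At these limits 0 of the 9 genes passed with edgeR or DESeq2, against 6.65% of all genes tested (4.02% higher and 2.63% lower), and 4 of the 9 had an unadjusted p under 0.05 with edgeR, near the 42.2% of all genes tested.

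**Figure D1:**
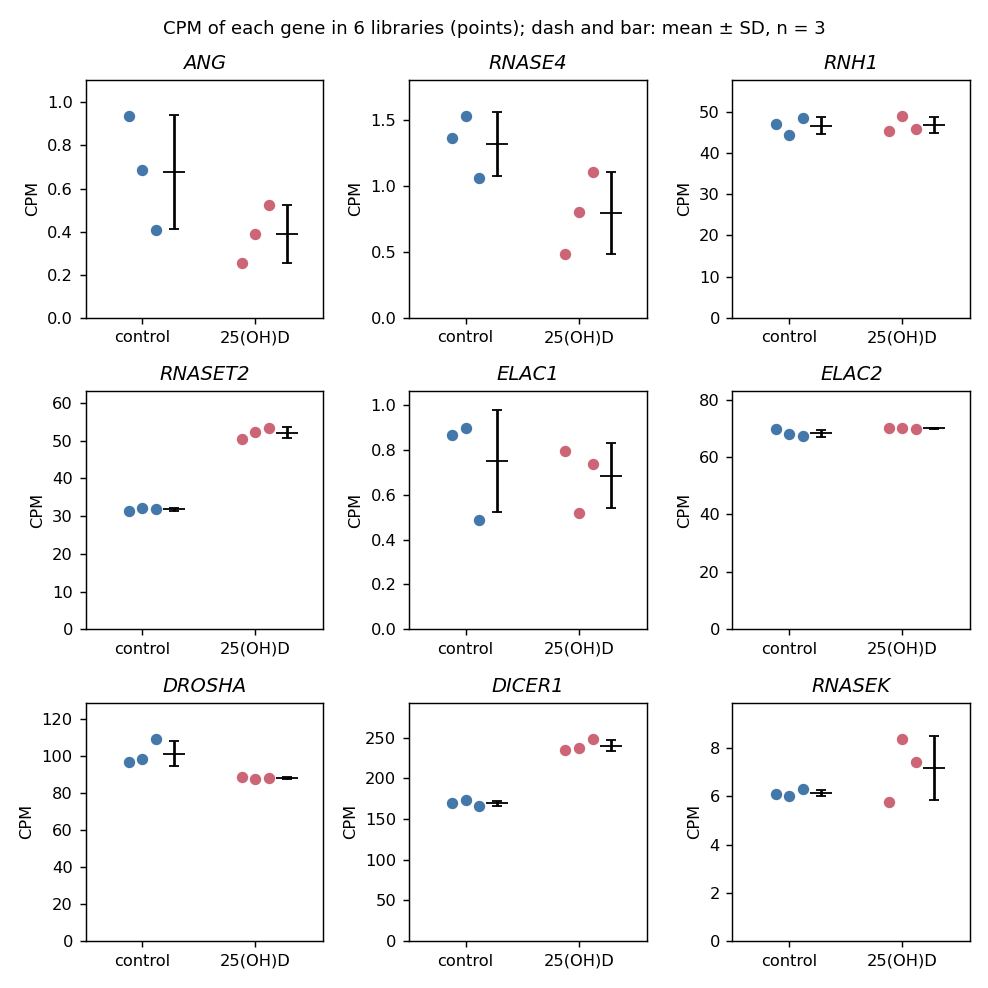
CPM (y axis, from 0) of the 9 genes in the 3 control and the 3 25(OH)D libraries, with 1 point per library and the mean ± SD of each group (n = 3) as a dash and bar. The points of the groups are well apart for RNASET2 and DICER1, closer for DROSHA, and they overlap for ANG, RNASE4, RNH1, ELAC1 and RNASEK.

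The microRNA-processing pair moved in opposite directions. DICER1, which lies on chromosome 14 of GRCh38 (chr14:95086228-95158010, minus strand) and encodes the cytoplasmic RNase III enzyme that releases mature microRNAs, had 169.0, 172.7 and 166.2 CPM in control and 235, 237 and 248 CPM with 25(OH)D. Every 25(OH)D library was above every control library. The fitted fold was 1.42 (95% interval 1.34 to 1.50). On the log2 scale this was 0.50 with a standard error of 0.0390 and an adjusted p of 1.68e-07. The libraries held 6119 to 9127 counts of DICER1 each, and the call held with each library left out in turn (log2 fold change 0.49 to 0.52).

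DICER1 shares 80 exon bases with its antisense gene DICER1-AS1, under 1% of its exon length. DICER1-AS1 had 1.83, 2.01 and 2.12 CPM in control and 1.34, 1.30 and 1.35 CPM with 25(OH)D. Its 25(OH)D libraries were all below the controls, and at -0.58 in log2 units (standard error 0.213) and an adjusted p of 0.0511 it did not pass the test.

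DROSHA (chr5:31400497-31532196, minus strand), the nuclear RNase III enzyme of the Microprocessor, had 96.7, 98.1 and 109 CPM in control and 88.9, 87.6 and 88.2 CPM with 25(OH)D. The 25(OH)D libraries were tightly grouped below all 3 control libraries, of which replicate 3 was the highest. The fitted ratio was 0.871 (95% interval 0.807 to 0.940), or -0.20 on the log2 scale with a standard error of 0.0514 and an adjusted p of 0.00782. This call rested on control replicate 3, without which the log2 fold change was -0.14 and the adjusted p 0.0502. No other gene of the table shares exon bases with DROSHA.

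**Figure D2:**
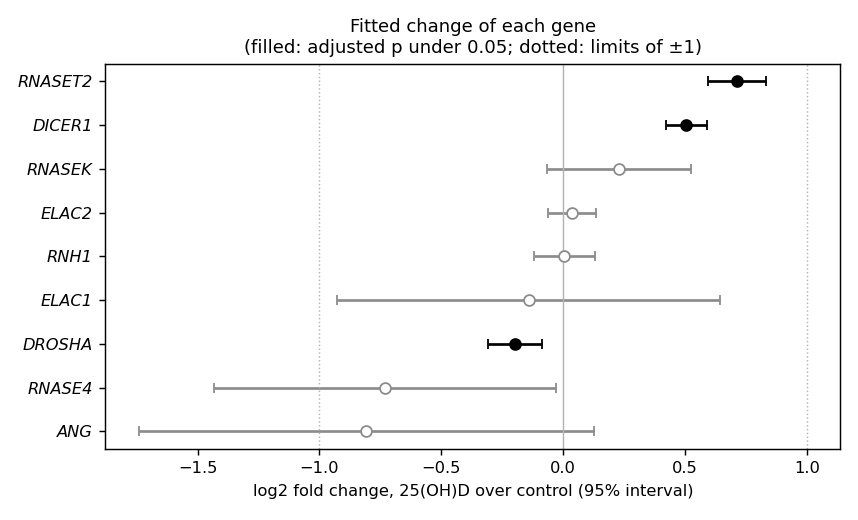
Fitted log2 fold change of 25(OH)D over control (x axis) of the 9 genes with its 95% interval, with filled points for an adjusted p under 0.05 and dotted lines at the study's limits of 1 and -1. The intervals of RNASET2, DICER1 and DROSHA are short and clear of 0, whereas those of ANG, RNASE4 and ELAC1, which rest on few reads, are wide.

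Neither gene of the tRNA 3-prime processing pair passed the test, and they were measured with very different precision. ELAC2 (chr17:12992391-13018187, minus strand), the long form of RNase Z that serves the nucleus and the mitochondria, had 69.6, 68.0 and 67.3 CPM in control and 70.0, 70.2 and 69.9 CPM in 25(OH)D. The 25(OH)D libraries lay just above all control libraries on this scale, and on the RPKM scale (counts divided by gene length and library total) the groups overlapped. Its log2 fold change was 0.036 (95% interval -0.063 to 0.14, adjusted p = 0.591). ELAC1 (chr18:50967991-50988121, plus strand), the short form of RNase Z, had 36, 34 and 18 counts in control and 28, 20 and 24 counts in 25(OH)D. Control replicate 3 was the lowest of all 6 libraries, and the groups overlapped. Its log2 fold change was -0.14 (95% interval -0.93 to 0.64, adjusted p = 0.803), so these few counts leave a wide range of changes in either direction possible. Its log2 fold change was -0.36 without control replicate 3 and 0.034 without 25(OH)D replicate 2.

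ELAC1 shares 338 exon bases, 8.51% of its exon length, with RP11-729L2.2, a gene on the same strand that has no exon base outside other genes. RP11-729L2.2 had more reads than ELAC1, with 208, 225 and 184 counts in control and 155, 145 and 120 in 25(OH)D, and it fell by 0.43 on the log2 scale (standard error 0.142, adjusted p = 0.0320). ELAC1 exons cover only 25.9% of its exon bases.

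ANG and RNASE4 form 1 locus on the plus strand of chromosome 14. ANG (chr14:20684177-20698971) encodes angiogenin, which cuts mature tRNA, and RNASE4 (chr14:20684100-20701215) encodes another secreted ribonuclease of the same family. They share 675 exon bases, 47.2% of those of ANG and 25.8% of those of RNASE4, and a further gene, RP11-903H12.5, has all of its 1498 exon bases within other genes of the strand, 93.1% of them in RNASE4. RP11-903H12.5 nonetheless had 18 to 66 counts per library, so reads in shared bases were not all discarded. How such reads were assigned is not given in the sources used here, and a read may stand in the count of more than 1 of these genes. RNASE4 had 57, 58 and 39 counts in control and 17, 31 and 36 with 25(OH)D, or 1.37, 1.53 and 1.06 CPM and 0.484, 0.806 and 1.10 CPM. The highest 25(OH)D library was above the lowest control library, so the groups overlapped.

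The log2 fold change of RNASE4 was -0.73 (95% interval -1.43 to -0.031), with an unadjusted p of 0.0418 and an adjusted p of 0.103 from edgeR, which did not pass the test. Without 25(OH)D replicate 3 it was -1.01 with an adjusted p of 0.0443, and without 25(OH)D replicate 1 it was -0.47 with an adjusted p of 0.311. ANG, with 9 to 39 counts per library, had a log2 fold change of -0.81 (95% interval -1.74 to 0.13, adjusted p = 0.177), its groups overlapped, and it was -0.49 without control replicate 1. RP11-903H12.5, whose reads are not separate evidence, had -0.71 (adjusted p = 0.114). The gene on the opposite strand, RP11-903H12.3, shares 203 exon bases with ANG and had -0.75 (adjusted p = 0.215). All 4 genes of the locus thus had lower means in 25(OH)D, none passed the test, and 25(OH)D replicate 1 was the lowest library for each of them. These genes share exon bases, so they may not be separate evidence. With the counts of ANG and RNASE4 added, the value was -0.76 in log2 units (standard error 0.293, adjusted p = 0.0613), a sum in which shared reads can enter more than once.

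Sequences of this locus are shown because a tRNA gene lies upstream of ANG and because ANG and RNASE4 share promoter windows. Promoter windows of 300 bases, taken from RefSeq on GRCh38.p14, were found for 8 of the 9 genes, in 14 distinct windows, and 2 of these windows are listed for both ANG and RNASE4. The stretch upstream of all exons of both genes holds a gene for a proline tRNA, TRP-TGG3-2 (chr14:20684016-20684087, 72 bases). The first sequence is that stretch, from a window listed for ANG alone, with the tRNA gene in capitals. The second is the upstream part of an internal promoter window that the RefSeq table gives for both genes, with both matches to TATATA in capitals. Both are on the plus strand.
ANG upstream, chr14:20683927-20684099: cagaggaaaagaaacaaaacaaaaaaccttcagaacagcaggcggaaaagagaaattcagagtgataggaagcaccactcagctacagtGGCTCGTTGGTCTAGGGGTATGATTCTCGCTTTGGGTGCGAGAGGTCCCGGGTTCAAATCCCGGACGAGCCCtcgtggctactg
ANG and RNASE4 internal, chr14:20688514-20688763: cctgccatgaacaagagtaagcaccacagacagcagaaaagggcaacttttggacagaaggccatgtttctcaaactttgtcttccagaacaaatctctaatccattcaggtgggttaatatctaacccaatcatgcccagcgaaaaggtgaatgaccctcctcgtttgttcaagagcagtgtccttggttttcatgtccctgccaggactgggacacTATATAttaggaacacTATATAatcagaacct

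The motif TATATA, which reads the same on both strands, occurs in 4% of the 34943 distinct windows of all genes. The hexamers AGGTCA and AGTTCA, motifs of the kind that the vitamin D receptor binds in spaced pairs with its RXR partner, were searched on both strands and are in none of the 14 windows of these genes. They occur in 13.8% and 10.5% of all windows, and a pair of AGGTCA copies 3 bases apart occurs in 2 of them. This covers only these letters in these windows.

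RNH1 (chr11:494512-507300, minus strand), the cytosolic inhibitor that binds RNase A family members including angiogenin, is the regulator among the 9. It had 46.95, 44.4 and 48.6 CPM in control and 45.5, 48.97 and 45.9 CPM in 25(OH)D. The libraries of both groups were interleaved, and the log2 fold change was 0.0043 (95% interval -0.12 to 0.13, adjusted p = 0.964). With 1496 to 1955 counts per library and no exon base shared with another gene, RNH1 was measured with more precision than its targets.

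RNASET2 (chr6:166929504-166957191, minus strand) had the largest change of the 9 genes among those that passed the test. It had 31.4, 32.2 and 31.9 CPM in control and 50.5, 52.4 and 53.5 CPM with 25(OH)D. The controls lay within 1 CPM of each other, and every 25(OH)D library was far above them. The fold was 1.64 (95% interval 1.51 to 1.78), which is 0.71 in log2 units with a standard error of 0.0547 and an adjusted p of 1.58e-07. Omission of any 1 library gave 0.71 to 0.74. RP11-514O12.4, which has 72.3% of its exon bases inside RNASET2 on the same strand, rose too, from 8.66 ± 1.10 CPM in control to 13.97 ± 0.704 CPM (SD, n = 3 each), with an adjusted p of 0.000125 from edgeR, and is not separate evidence. The shared bases make up 5.68% of the exon length of RNASET2.

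RNASEK (chr17:7012417-7014532, plus strand), which encodes a small membrane protein with reported ribonuclease activity, had 6.10, 6.03 and 6.30 CPM in control and 5.75, 8.37 and 7.43 CPM in 25(OH)D. The 25(OH)D libraries spread widely, with replicate 1 below all controls and the other two above them. The log2 fold change was 0.23 (95% interval -0.068 to 0.52, adjusted p = 0.232). It depended on single libraries, being 0.37 with an adjusted p of 0.0416 without 25(OH)D replicate 1 and 0.11 with an adjusted p of 0.643 without 25(OH)D replicate 2. RNASEK shares 661 exon bases, 36.9% of its exon length, with the readthrough gene RNASEK-C17orf49. That gene had 7.69 ± 0.753 CPM in control and 8.50 ± 1.12 CPM in 25(OH)D (SD, n = 3 each) and a log2 fold change of 0.14 (adjusted p = 0.411). C17orf49, which shares 38 exon bases with RNASEK, had a log2 fold change of -0.077 (adjusted p = 0.798).

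Levels of different genes were compared per length, as RPKM. In control, DICER1 (13.97 ± 0.324 RPKM) and DROSHA (13.2 ± 0.825 RPKM) were the highest and their libraries overlapped. ELAC2 (10.9 ± 0.230), RNH1 (6.42 ± 0.262), RNASET2 (4.22 ± 0.0508) and RNASEK (3.48 ± 0.0646) followed, each apart from its neighbours in RPKM. RNASE4 (0.513 ± 0.0955) and ANG (0.481 ± 0.190) overlapped each other, and ELAC1 (0.192 ± 0.0589) was the lowest (all RPKM, mean ± SD, n = 3). By mean RPKM in control, ELAC1, ANG and RNASE4 stood above only 7.48%, 16.8% and 17.6% of all genes tested, whereas DICER1 stood above 82.5%. The widest intervals of the 9 genes were those of these 3 rare messengers. In 25(OH)D, DICER1 reached 19.2 ± 0.496 RPKM and no longer overlapped DROSHA, at 11.2 ± 0.0525 RPKM. RNASET2, at 6.71 ± 0.200 RPKM, passed RNH1, at 6.24 ± 0.298 RPKM, and overlapped it (SD, n = 3 each).

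**Figure D3:**
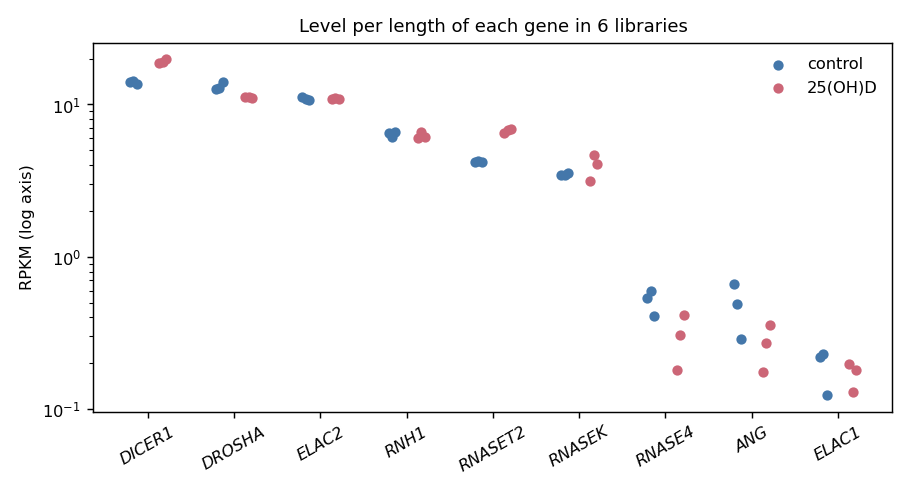
RPKM (y axis, log scale) of the 9 genes in the 3 control and the 3 25(OH)D libraries, in the order of their control means, with 1 point per library. DICER1 and DROSHA are close together in control and apart in 25(OH)D, and RNASE4, ANG and ELAC1 lie below 1 RPKM in every library.

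For 3 pairs of genes, ratios of RPKM within a library were compared between the groups by a two-sided exact permutation test, in which 3 libraries against 3 cannot give a p under 0.1. DROSHA to DICER1 was 0.904, 0.898 and 1.04 in control and 0.597, 0.583 and 0.562 in 25(OH)D. The groups did not overlap, and the ratio per length went from near parity to clearly below it. The fitted change was larger for DICER1 (log2 fold change 0.50) than for DROSHA (-0.20). The mean log2 ratio was -0.083 ± 0.118 in control and -0.78 ± 0.0439 in 25(OH)D (SD, n = 3 each), a difference of -0.70 with the smallest possible exact p of 0.1 (0.3 adjusted over the 3 ratios). It lay between -0.74 and -0.63 with each library left out. ELAC2 to ELAC1 ranged from 47.4 to 86.1 in control and from 55.0 to 84.5 in 25(OH)D, and its mean log2 value differed by 0.14 (exact permutation p = 0.6). That difference was -0.017 without control replicate 2 and -0.046 without 25(OH)D replicate 2. The long RNase Z was by far the more abundant messenger in every library, and ELAC1 had only 18 to 36 counts.

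RNH1 to the sum of RNASE4 and ANG was 5.40, 5.65 and 9.54 in control and 16.9, 11.4 and 7.90 in 25(OH)D. The ratios overlapped in control replicate 3 and 25(OH)D replicate 3. The mean log2 ratio differed by 0.80 between the groups (exact permutation p = 0.2, adjusted p = 0.3), and the groups overlapped. It was 0.52 without 25(OH)D replicate 1 and 1.07 without 25(OH)D replicate 3.

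**Figure D4:**
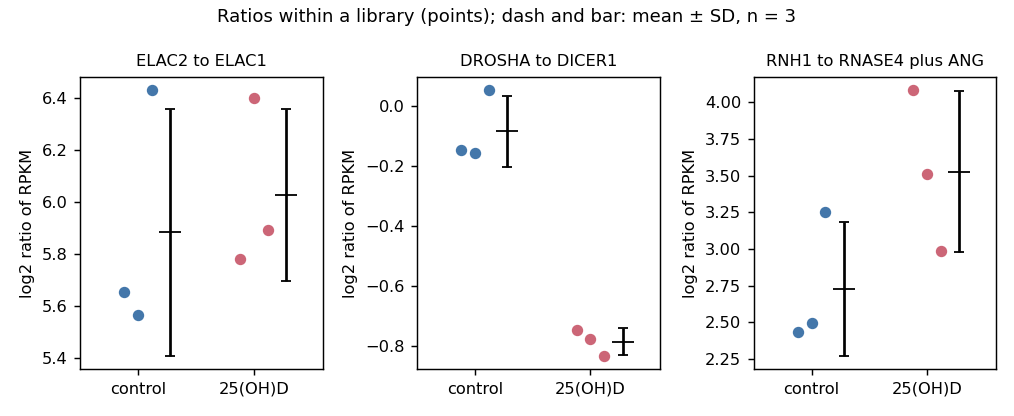
Log2 ratio of RPKM within each library (y axis) for ELAC2 to ELAC1, DROSHA to DICER1, and RNH1 to RNASE4 plus ANG, with 1 point per library and the mean ± SD of each group (n = 3) as a dash and bar. The groups are apart for DROSHA to DICER1, with a mean difference of -0.70, and overlap for both other ratios.

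Other genes of these pathways were described from 6 lists of 63 genes, of which 52 were tested. Of these, 12 were higher and 10 lower at an adjusted p under 0.05, beside 17.3% higher and 16.5% lower of all genes tested. The median log2 fold change of these 52 was -0.022, beside -0.011 over all genes tested. With upper-quartile factors or library sizes alone the split was 9 higher and 14 lower. Over all genes tested, the median log2 fold change was -0.053 and -0.055 in these settings. There 6318 and 6356 genes passed in either direction, against 6142 in the main fit. Their shares by direction were not computed. Among the 10 partners of DROSHA and DICER1, all tested, 1 rose and 1 fell, and both were Argonautes, which carry the mature microRNA. AGO3 rose by 0.34 on the log2 scale, with 20.5 ± 0.778 CPM in control and 25.97 ± 0.655 CPM with 25(OH)D (SD, n = 3 each, adjusted p = 0.00101 from edgeR). AGO2, the Argonaute with slicer activity, fell by 0.18 on the log2 scale, with 54.1 ± 1.34 CPM in control and 47.8 ± 0.286 CPM with 25(OH)D (SD, n = 3 each, adjusted p = 0.0132 from edgeR).

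RNase P, which acts on the 5-prime end of precursor tRNA, shares most of its subunits with RNase MRP. Of the 11 subunits, 0 rose and 3 fell, against 17.3% higher and 16.5% lower of all genes tested, with a median log2 fold change of -0.14. POP7 had the smallest p of those that fell (log2 fold change -0.37, adjusted p = 0.0199), and RPP14 of those with a higher mean (0.058, adjusted p = 0.675). Of the 4 genes of mitochondrial RNase P and CCA addition, TRMT10C fell (log2 fold change -0.20, adjusted p = 0.0180) and PRORP, listed under its older symbol KIAA0391, had 0.026 (adjusted p = 0.741). Among the 10 genes of tRNA splicing, 3 rose and 3 fell. The endonuclease subunit TSEN15 fell, with 15.3, 17.7 and 16.5 CPM in control and 9.47, 10.3 and 10.0 CPM in 25(OH)D (log2 fold change -0.73, adjusted p = 1.48e-05). RTCB, the ligase that joins tRNA exons, rose (log2 fold change 0.25, adjusted p = 0.00103).

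Of 17 other nucleases that act on small RNA, 8 rose and 2 fell, against 17.3% higher and 16.5% lower of all genes tested, with a median log2 fold change of 0.060. ISG20, an interferon-induced 3-prime exonuclease, had 8.23 ± 0.686 CPM in control and 17.1 ± 0.796 CPM with 25(OH)D (SD, n = 3 each). It rose by 1.06 in log2 units (adjusted p = 5.82e-07), past the study's limit on the fold. EXOSC10, a nuclear exosome nuclease, fell with a log2 fold change of -0.32 (adjusted p = 8.28e-05). Besides ANG and RNASE4, 11 further RNase A family genes were looked up, of which 4 (RNASE1, RNASE2, RNASE3 and RNASE7) are in the table with at most 6 counts in a library, and none was tested. ANG and RNASE4 were thus the RNase A family genes that passed the filter.

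**Figure D5:**
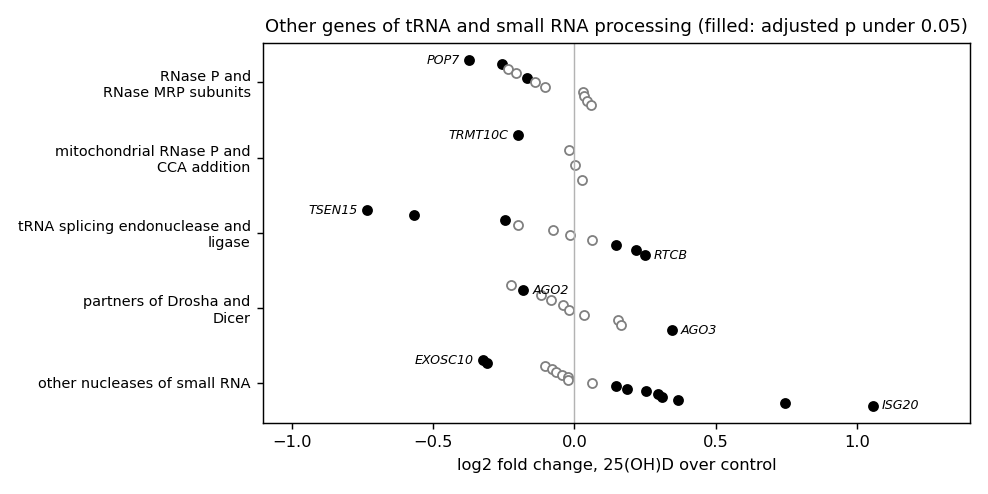
Log2 fold change of 25(OH)D over control (x axis) of the 52 tested genes in 5 lists, with 1 point per gene and filled points for an adjusted p under 0.05. Genes named in the text that passed the test are labelled, with ISG20 at 1.06 farthest to the right and TSEN15 at -0.73 farthest to the left.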

How the data were processed

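The authors deposited a table of counts, whole reads per gene without normalization, and a table of RPKM values, in which each count was divided by the gene length and by the library total (largest relative difference on checking 5.14e-15). The submitters' processing notes name Trimmomatic 0.36, featureCounts of Subread 1.5.1, edgeR 3.12.1 and GRCh38, and the aligner and annotation release are not given in the sources used here. The exons of the 9 genes match GENCODE 29. All 6 columns of each table were used, and columns were matched to libraries by their labels.

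Counts were fitted in R 4.3.3 with edgeR 4.0.16 (TMM, filterByExpr with a minimum count of 10, group as the only term, quasi-likelihood test), and p-values were adjusted over the 18183 genes tested. Standard errors were derived from the log2 fold change and its F statistic, and 95% intervals from both. The fit was tested on simulated counts with the same dispersion for every gene, a simpler setting than these data. CPM used TMM-scaled library sizes. Alternatives were other scaling, no filter, DESeq2 1.42.0, limma 3.58.1 on log2(RPKM + 1) and log2(RPKM + 0.1), the replicate number as a block, merged loci, and each library left out. Ratios were tested in Python 3.11.15 with scipy 1.17.1. Pairs of libraries within a group differed by more than counting noise (chi-square per gene 3.97 to 12.1). The genes, the lists and the rule for names (all 9 genes, genes sharing exon bases, and the smallest p in each direction per list) were chosen with earlier results of these data known. Some genes covered by the rule or the marker list are not reported here.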

Additional observations from a re-analysis of the deposited data

How the results depend on the processing

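All 9 genes were refitted under 8 settings with all libraries and 6 that leave out 1 library. RNASET2 and DICER1 passed the test in all 14, and DROSHA in 13 (not without control replicate 3). With a library left out, 2 to 3 of the 9 genes were higher (RNASEK joining without 25(OH)D replicate 1) and 0 to 2 lower (RNASE4 joining without 25(OH)D replicate 3). At the study's limits 0 passed upwards and 0 to 1 downwards (ANG without control replicate 3, RNASE4 without 25(OH)D replicate 3). Of the list genes 9 to 11 were higher and 6 to 10 lower. The count of 6 came without 25(OH)D replicate 1, where 5313 of 18772 genes tested passed in either direction. In the main fit 6142 of 18183 did. With a library left out, this number lay between 5091 (without control replicate 2) and 5697 (without 25(OH)D replicate 3). ELAC2 changed sign at -0.0051 with upper-quartile factors, -0.0078 with library sizes alone, -0.0068 on log2(RPKM + 1) and -0.0074 on log2(RPKM + 0.1). Under the same settings RNH1 changed sign at -0.037, -0.039, -0.034 and -0.039, and it did so without control replicate 2 (-0.024) and without 25(OH)D replicate 2 (-0.023), ranging from -0.024 to 0.041 with a library left out. ELAC1 changed sign without control replicate 2 (0.0082) and without 25(OH)D replicate 2 (0.034), ranging from -0.36 to 0.034. Under the settings where ELAC2 changed sign, the median log2 fold change over all genes tested was, in the same order, -0.053, -0.055, -0.030 and -0.052. In the main fit it was -0.011. None of ELAC2, RNH1 and ELAC1 passed a test in either direction, and the cause of the sign changes was not tested. ELAC2 also lost its separation with library sizes alone, which left 3 genes without overlap. Same-numbered libraries were not treated as pairs in the main fit, since the study names no pairing. Their deviations from the group means correlated at -0.072, -0.012 and -0.046, and no library correlated best with its own number. These correlations cannot show whether cultures were handled in pairs. With the replicate number as a block, 2 of the 9 genes were higher and 1 lower, and of the list genes 12 were higher and 8 lower. In that fit 5953 of 18183 genes tested passed in either direction. Adding reads of RP11-903H12.5 to ANG and RNASE4 (log2 fold change -0.74, adjusted p = 0.0425) or of RNASEK-C17orf49 to RNASEK (0.18, adjusted p = 0.222) was tried after the data were seen, and shared reads can count more than once there. Depth limits ELAC1, ANG and RNASE4, which had 9 to 58 counts per library.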
